A study of Mus musculus with 16 samples.

Results

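The genes described here are 10 mouse genes of blood and bone marrow, read in RNA from dorsal root ganglia (DRGs), the clusters of sensory neuron cell bodies beside the spinal cord. They were chosen by name, not by a rule on their values, as a gauge of red cells and marrow cells carried with the tissue. Earlier results of these data were known at that time. The set holds 6 red cell genes (Hba-a1, Hba-a2, Hbb-bs, Hbb-bt, Alas2 and Slc4a1) and 4 genes of granulocyte progenitors (Mpo, Elane, Prtn3 and Ctsg). All 10 have a row in the count files, out of 52636 genes listed. The 16 libraries came from L3 to L6 DRGs of male C57Bl6/J mice aged 3 to 4 months, with 1 mouse in each library and 4 in each of 4 groups. Spared nerve injury (SNI), in which the common peroneal and sural nerves are tied and cut and the tibial branch is left whole, or sham surgery was followed by 3 weeks of intraperitoneal injections 2 times daily. Mice of the groups Sham-DMI and SNI-DMI received desipramine (DMI), a tricyclic antidepressant that blocks noradrenaline reuptake, at 15 mg/kg, and those of Sham-Saline and SNI-Saline received saline. The injections began 4 weeks after surgery by the series' design text, whereas the study's methods section says 4 months. All mice had an operation and injections, and whether the animals were perfused before dissection is not given in the sources used here. In the labels the tissue field reads spinal cord, while the cell type field reads dorsal root ganglia.

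Total reads on genes ran from 41194238 (Sham-DMI replicate 3) to 73920332 (Sham-DMI replicate 2), and the 10 genes took 0.00276% to 0.0129% of them. Levels are given as CPM, the count of a gene scaled by the total of its library after adjustment by edgeR's TMM factor (0.9723 to 1.021). By the unadjusted totals, 3 counts correspond to 0.0406 to 0.0728 CPM. The sensory neuron gene Avil (advillin) was at 824 to 1030 CPM and Nefh (heavy neurofilament) at 1850 to 2880 CPM in every library, while the oligodendrocyte genes Mog and Olig2 were at no more than 0.749 and 0.290 CPM, and Mobp was at 1.81 to 23.7 CPM. The numbers at the end of the library titles run from 17 to 24 with DMI and from 33 to 40 with saline. They are 17 to 20 in Sham-DMI, 21 to 24 in SNI-DMI, 33 to 36 in SNI-Saline and 37 to 40 in Sham-Saline. Anything that followed this order cannot be told apart from DMI, or from surgery within each treatment.

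Haemoglobin is a tetramer of paired alpha and beta chains around haem. In adult C57BL/6 mice the alpha chains come from Hba-a1 and Hba-a2 and the beta chains from Hbb-bs and Hbb-bt, and young red cells that have lost the nucleus still carry globin mRNA. Alas2 is the erythroid form of the enzyme that opens haem synthesis, and Slc4a1 encodes band 3, the anion exchanger of the red cell membrane. Mpo (myeloperoxidase), Elane (neutrophil elastase), Prtn3 (proteinase 3) and Ctsg (cathepsin G) encode the enzymes of primary granules. Their mRNAs are made by promyelocytes in marrow and are largely lost by the time a neutrophil enters the blood. In bulk RNA, fewer cells of a type and less RNA in each such cell cannot be told apart.

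The 4 globin genes lie in pairs. On GRCm38, Hba-a1 occupies chr11:32283511-32284465 and Hba-a2 chr11:32296489-32297298, both on the plus strand, and Hbb-bs occupies chr7:103826534-103828096 and Hbb-bt chr7:103812524-103813996, both on the minus strand. Elane (chr10:79886247-79888215) and Prtn3 (chr10:79874476-79883174) are neighbours on the plus strand. Stretches before the start of 5 of the genes are printed as examples of both sets, since the red cell genes rose and fell together over the libraries and the granule genes did so in part. They are cut from RefSeq promoter windows on GRCm38.p6, read 5′ to 3′ on the gene's strand, and stop before the first GENCODE exon. In the red cell genes capitals mark the word GATAA, the word CACCC and the word CCAAT, on either strand. In the granule genes they mark the word AGGAAGT. The spans are chr11:32296242-32296488 for Hba-a2, chr7:103813997-103814173 for Hbb-bt, chrX:150547167-150547374 for Alas2, chr10:79886062-79886246 for Elane and chr14:56102575-56102824 for Ctsg.
Hba-a2: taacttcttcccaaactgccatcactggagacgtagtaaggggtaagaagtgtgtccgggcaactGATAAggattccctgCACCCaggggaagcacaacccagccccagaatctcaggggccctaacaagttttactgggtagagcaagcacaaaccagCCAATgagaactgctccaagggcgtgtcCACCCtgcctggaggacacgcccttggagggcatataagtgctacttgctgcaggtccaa
Hbb-bt: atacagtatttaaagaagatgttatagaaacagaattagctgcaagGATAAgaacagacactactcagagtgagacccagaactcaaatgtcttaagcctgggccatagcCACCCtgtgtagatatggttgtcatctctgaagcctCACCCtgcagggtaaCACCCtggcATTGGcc
Alas2: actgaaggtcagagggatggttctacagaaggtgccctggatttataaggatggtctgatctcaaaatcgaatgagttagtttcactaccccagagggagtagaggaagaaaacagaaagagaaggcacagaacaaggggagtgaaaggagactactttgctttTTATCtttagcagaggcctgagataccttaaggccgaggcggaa
Elane: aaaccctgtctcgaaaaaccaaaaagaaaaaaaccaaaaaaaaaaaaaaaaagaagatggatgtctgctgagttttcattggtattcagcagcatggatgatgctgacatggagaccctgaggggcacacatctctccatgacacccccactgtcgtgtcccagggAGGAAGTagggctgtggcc
Ctsg: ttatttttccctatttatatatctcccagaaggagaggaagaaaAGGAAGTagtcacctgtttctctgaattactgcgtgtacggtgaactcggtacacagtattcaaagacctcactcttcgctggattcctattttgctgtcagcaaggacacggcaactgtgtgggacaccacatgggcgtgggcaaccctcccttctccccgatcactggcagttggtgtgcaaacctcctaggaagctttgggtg

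Promoter windows were found for 9 of the 10 genes, all but Slc4a1, and were searched over the 250 bases before the RefSeq start on both strands. For all printed genes but Ctsg these windows reach past the printed end. The words were picked with the sequences in view, after those known for GATA factors (GATAA), for Krüppel-like factors (CACCC), for ETS factors (AGGAAGT), for MYB (AACGG) and for the factors named after CCAAT. None of the words holds another one in either orientation. GATAA stood in 5 of 5 red cell windows and 0 of 4 granule windows, against 23% of 27025 windows of all genes. AGGAAGT stood in 0 of 5 and 4 of 4, against 7.8%. CACCC did not part the sets, with 5 of 5 and 4 of 4 against 51.3%. CCAAT stood in 4 of 5 and 1 of 4 (Elane) against 34.5%, and AACGG in 0 of 5 and 2 of 4 (Elane and Prtn3) against 14.8%. The windows of Hba-a1 and Hba-a2 were identical over 247 of 247 aligned bases, and those of Hbb-bs and Hbb-bt over 77.4% of aligned bases. A match describes the sequence only, and binding was not measured.

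The genes differed widely in level. Per kilobase of exon, the mean over the 16 libraries was 47.7 CPM for Hbb-bs, 17.8 for Hba-a1, 14.2 for Hba-a2 and 7.56 for Hbb-bt. The other red cell genes were lower, with 0.836 CPM per kilobase for Alas2 and 0.396 for Slc4a1. The granule genes had 0.434 (Prtn3), 0.281 (Elane), 0.214 (Mpo) and 0.0993 CPM per kilobase (Ctsg). Hbb-bs stood at the 95th percentile and Hba-a1 at the 85th percentile of the tested genes by this level, and Mpo at the 13.5th percentile. Hba-a1 and Hba-a2, and likewise Prtn3, Slc4a1, Elane and Mpo, differed between neighbours in this order by less than their own spread over the libraries, which was 2.8-fold or more.

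Hbb-bs was at 67.2, 41.7, 20.8 and 41.8 CPM in Sham-Saline replicates 1 to 4, at 39.9, 57.0, 36.1 and 41.7 CPM in SNI-Saline, at 17.1, 58.9, 16 and 24.2 CPM in Sham-DMI, and at 29.8, 45.7, 29.4 and 19 CPM in SNI-DMI. Hba-a1 was at 35.3, 30.0, 5.41 and 12.8 CPM in Sham-Saline, at 10.2, 28.5, 10.6 and 10.6 CPM in SNI-Saline, at 6.25, 19.9, 4.2 and 7.74 CPM in Sham-DMI, and at 9.50, 17.7, 17.4 and 5.23 CPM in SNI-DMI. In both genes every group overlapped every other, and the highest library was 4.2 and 8.4 times the lowest. Hba-a2 ran from 4.38 CPM (Sham-Saline replicate 3) to 17.9 CPM (SNI-Saline replicate 2), and Hbb-bt from 1.90 CPM (Sham-DMI replicate 3) to 11.2 CPM (Sham-DMI replicate 2). Replicate 2 was thus the highest Sham-DMI library for each of the 4 globin genes, and replicate 2 the highest SNI-Saline library.

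Alas2 was at 3.01, 2.64, 1.56 and 2.28 CPM in Sham-Saline, at 1.74, 3.67, 1.69 and 1.85 CPM in SNI-Saline, at 0.786, 4.64, 0.924 and 1.34 CPM in Sham-DMI, and at 1.27, 2.30, 1.67 and 0.784 CPM in SNI-DMI. Slc4a1 was at 3.65, 3.56, 0.919 and 3.41 CPM in Sham-Saline, at 1.41, 4.97, 1.61 and 1.67 CPM in SNI-Saline, at 0.427, 3.84, 0.150 and 1.23 CPM in Sham-DMI, and at 0.941, 1.32, 1.20 and 0.648 CPM in SNI-DMI. Both genes were high in replicate 2 of SNI-Saline and of Sham-DMI and low in Sham-DMI replicates 1 and 3. Slc4a1 had the widest range of the red cell genes, 33.2-fold, from 6 counts in Sham-DMI replicate 3 to 305 counts in SNI-Saline replicate 2.

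**Figure D1:**
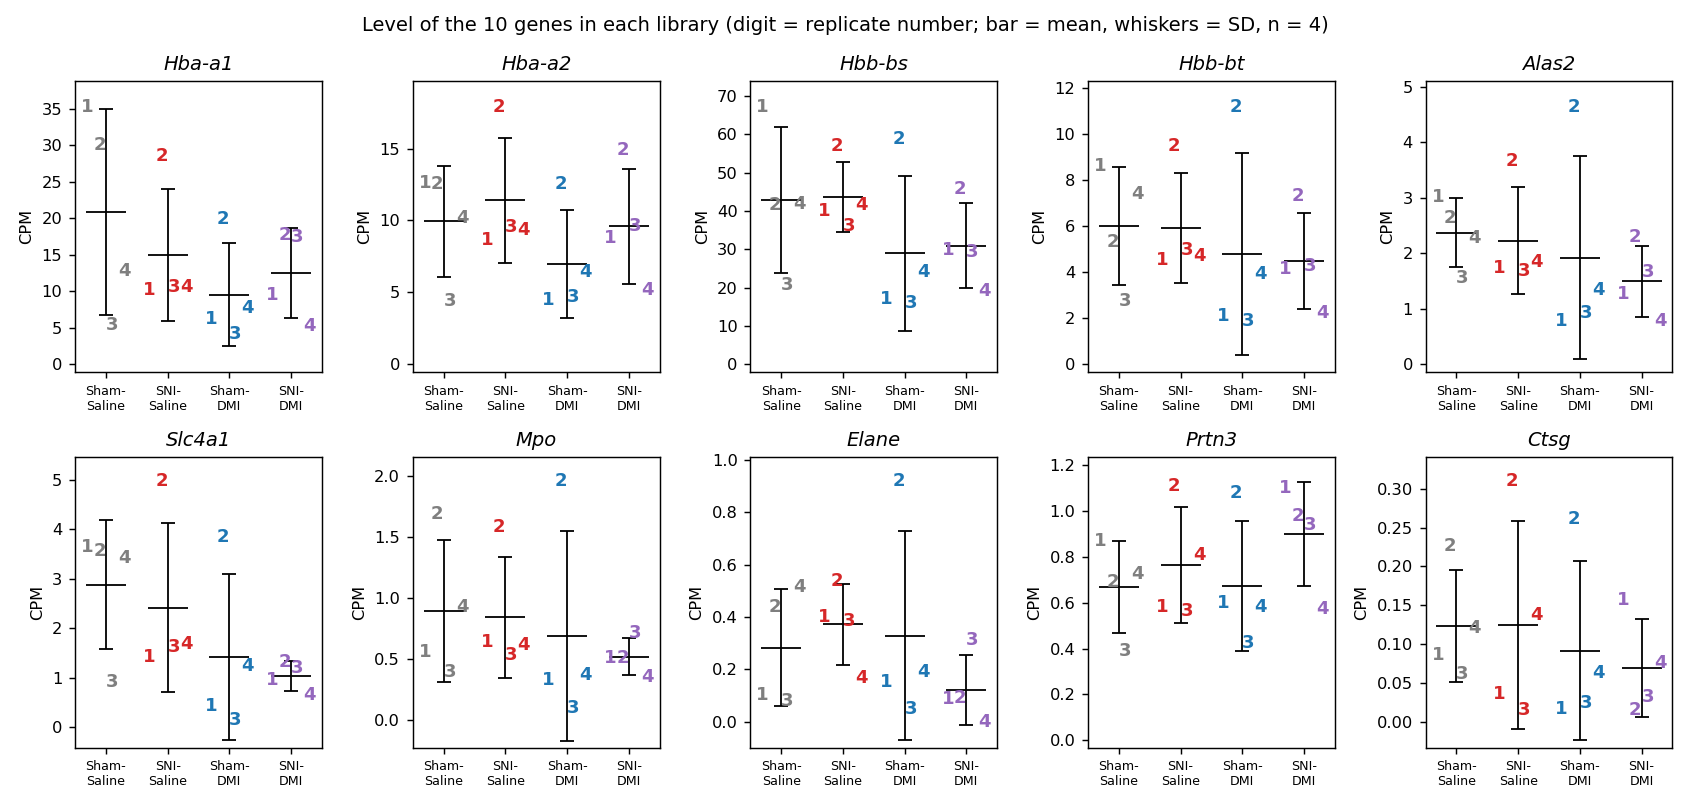
CPM of each of the 10 genes (vertical axis, linear, 1 panel per gene) in the 4 groups; each digit is the replicate number of 1 library, and the bar and whiskers give the mean and SD of 4 libraries. Replicate 2 stands high in SNI-Saline and Sham-DMI in nearly every panel, for example at 4.97 and 3.84 CPM for Slc4a1.

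The granule genes were measured at low counts. Mpo was at 0.556, 1.69, 0.390 and 0.921 CPM in Sham-Saline, at 0.634, 1.58, 0.530 and 0.611 CPM in SNI-Saline, at 0.324, 1.96, 0.0999 and 0.363 CPM in Sham-DMI, and at 0.505, 0.505, 0.709 and 0.347 CPM in SNI-DMI. Its counts ran from 4 to 143. Elane was at 0.104, 0.438, 0.0779 and 0.513 CPM in Sham-Saline, at 0.399, 0.538, 0.386 and 0.168 CPM in SNI-Saline, at 0.154, 0.920, 0.0499 and 0.189 CPM in Sham-DMI, and at 0.0871, 0.0919, 0.313 and 0 CPM in SNI-DMI. Sham-DMI replicate 2 was the highest library for both. No Elane read was counted in SNI-DMI replicate 4, which allows a level of up to 0.0458 CPM at 3 counts by the unadjusted total. This covers counting error only. Prtn3 varied least of the 10 genes, 2.8-fold, from 0.390 CPM in Sham-Saline replicate 3 to 1.11 CPM in SNI-Saline replicate 2, and its highest group mean was in SNI-DMI (0.898 ± 0.227 CPM, SD, n = 4). Ctsg had 1 to 19 counts per library (0.0153 to 0.310 CPM) and did not pass the filter on low counts, so 9 of the 10 genes entered the tests across genes. The filter asks for a minimum level in as many libraries as a group holds.

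The mice of 1 group differed in these genes far more than in most. The SD of log2 CPM within groups had a median of 0.81 over the 9 tested genes and of 0.16 over all 21371 tested genes. Elane (1.22), Slc4a1 (1.16), Mpo (1.01) and Hba-a1 (0.96) stood at the 99.7th, 99.7th, 99.2nd and 99th percentiles of all tested genes. Prtn3 (0.47) stood at the 83.8th percentile. Elane, Mpo and Slc4a1 had as few as 0, 4 and 6 counts in a library, whereas Hba-a1 had 168 or more.

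The same libraries were high or low for most of the 10 genes. SNI-Saline replicate 2 was among the 4 highest libraries for 10 of 10 genes and Sham-DMI replicate 2 for 9, followed by Sham-Saline replicate 2 for 7 and Sham-Saline replicate 1 for 6. Sham-DMI replicate 3 was among the 4 lowest for 10 of 10 genes, SNI-DMI replicate 4 for 9, Sham-DMI replicate 1 for 8 and Sham-Saline replicate 3 for 7. High and low libraries thus occurred side by side in Sham-DMI and in Sham-Saline. The summed level of the 6 red cell genes ran from 35.9 to 130 CPM over the Sham-Saline mice, from 27.8 to 111 CPM over Sham-DMI, from 64.6 to 122 CPM over SNI-Saline and from 33 to 89.2 CPM over SNI-DMI. Sham-Saline replicate 1 parted the sets. Its red cell genes lay 1.02 above their mean on the log2 scale, and its granule genes lay at -0.10. SNI-DMI replicate 2 did so too, at 0.45 and -0.46.

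**Figure D2:**
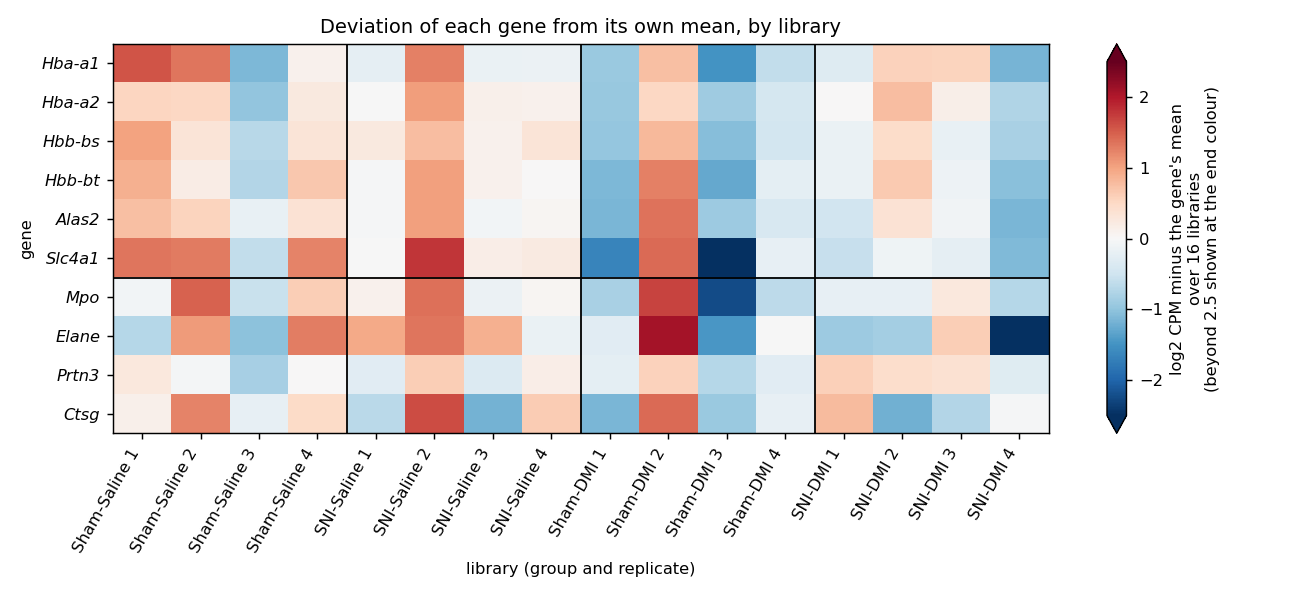
Difference of each gene's log2 CPM (rows, red cell genes above the line and granule genes below it) from its own mean over 16 libraries (columns, by group), with red above and blue below the mean. Whole columns are red in SNI-Saline replicate 2 and nearly so in Sham-DMI replicate 2, and blue in Sham-DMI replicate 3; Sham-Saline replicate 1 is red above the line and averages -0.10 below it.

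Over the 16 libraries the red cell genes rose and fell together. All 45 pairs of the 10 genes were compared on log2 CPM, with p-values from 100000 permutations adjusted over the 45 pairs by the Benjamini-Hochberg method. Pearson's r was 0.83 to 0.96 in the 15 pairs of red cell genes, and 15 of 15 had an adjusted p under 0.05. For Hbb-bs and Alas2, r was 0.92 (adjusted permutation p = 3.46e-05) and Spearman's rho 0.95 (adjusted permutation p = 4.09e-05), both at the smallest raw p that the permutations can give. This r was 0.89 without the 2 libraries farthest from the median, 0.80 within the 8 saline libraries and 0.96 within the 8 DMI libraries. With group means removed, the 15 pairs had r of 0.84 to 0.97, so the relation was also present between mice of the same group.

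The granule genes followed the red cell genes less closely. Pearson's r was 0.48 to 0.90 in the 24 mixed pairs, with a median of 0.68, and 22 of 24 had an adjusted p under 0.05. For Slc4a1 and Mpo, r was 0.90 (adjusted permutation p = 3.46e-05) and rho 0.86 (adjusted permutation p = 0.000197), with r of 0.81 without the 2 farthest libraries, 0.79 in saline and 0.95 in DMI libraries. For Hbb-bs and Mpo, r was 0.77 (adjusted permutation p = 0.000814) and rho 0.77 (adjusted permutation p = 0.0019), with r of 0.67 without the 2 farthest libraries, 0.47 in saline and 0.86 in DMI libraries. Among the 6 pairs of granule genes r ran from 0.38 (Elane and Prtn3, adjusted permutation p = 0.142) to 0.77 (Mpo and Elane, adjusted permutation p = 0.000939), and 4 of 6 had an adjusted p under 0.05. Whether the classes of pairs differ in r was not tested. Depth moved with some genes. The r of log2 CPM with total reads on genes was 0.73 for Mpo (adjusted permutation p = 0.0228 over 10 genes; rho 0.41, adjusted permutation p = 0.337) and 0.67 for Slc4a1 (adjusted permutation p = 0.03; rho 0.39, adjusted permutation p = 0.337). These values were 0.30 and 0.24 without the 2 libraries farthest from the median depth, so they rest on those libraries.

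**Figure D3:**
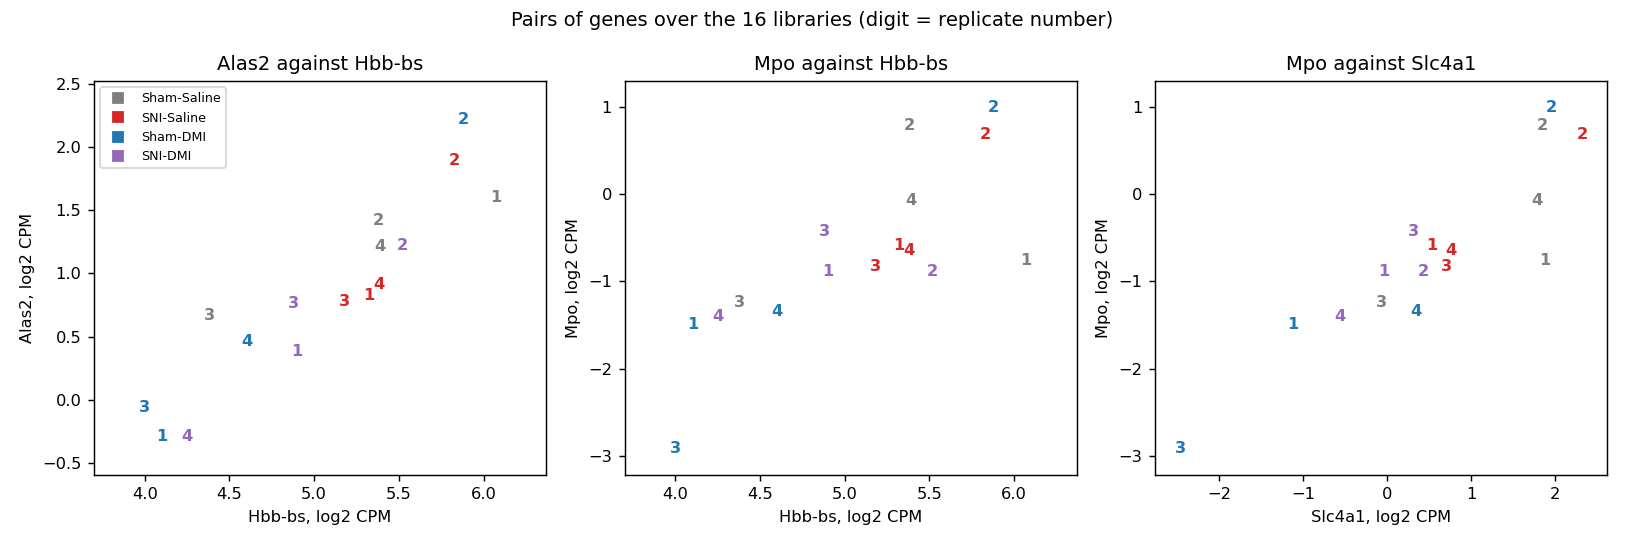
Log2 CPM of Alas2 against Hbb-bs, Mpo against Hbb-bs and Mpo against Slc4a1 over 16 libraries; colours give the group and digits the replicate. The points rise together (r of 0.92, 0.77 and 0.90), and in the middle panel Sham-Saline replicate 1 lies to the lower right, with the highest Hbb-bs level (67.2 CPM) and 0.556 CPM of Mpo.

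Genes outside the 10 with the most similar pattern are given as a description, by Pearson's r of log2 CPM over the 16 libraries. For Hbb-bs these were Btnl10 (0.88), Trim10 (0.87), Apol11b (0.87), Ctse (0.85), Ltf (0.85) and Cldn13 (0.84). Trim10 is a protein of late red cell maturation, Ctse is cathepsin E and Ltf is lactoferrin, a protein of the secondary granules of neutrophils. For Mpo they included Gm6088 (0.86), Ltf (0.86), Chil3 (0.83), Hemgn (0.83) and Ctse (0.82). Hemgn is an erythroid nuclear protein and Chil3 is a chitinase-like protein of myeloid cells. Among all tested genes, the first 5 places for Hbb-bs were taken by Hbb-bt, Hba-a2, Alas2, Slc4a1 and Hba-a1, and the first place for Mpo by Slc4a1. Apart from Ltf (0.25 to 6.16 CPM), the genes named were at no more than 1.91 CPM.

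The comparison SNI-Saline versus Sham-Saline asks what nerve injury does without drug. Hba-a1 averaged 15.0 ± 9.01 CPM in SNI-Saline and 20.9 ± 14.1 CPM in Sham-Saline (SD, n = 4 each), and Hbb-bs 43.7 ± 9.17 and 42.9 ± 19 CPM. Alas2 averaged 2.23 ± 0.956 against 2.37 ± 0.618 CPM and Mpo 0.839 ± 0.496 against 0.890 ± 0.580 CPM. By edgeR's quasi-likelihood test with Benjamini-Hochberg adjustment over all tested genes, 0 of 9 genes passed an adjusted p of 0.1, against 12.0% of all tested genes, and 0 of 9 had an unadjusted p under 0.05. DESeq2 called 0 of 9 as well. By the study's rule for differentially expressed genes (DEGs), which asks for an unadjusted p under 0.05 and a log2 fold change of 0.32 or more in size, the count was 0 of 9 against 7.15%. The log2 fold changes ran from -0.48 (SE 0.54, Hba-a1) to 0.37 (SE 0.76, Elane), with 5 lower and 4 higher and a median of -0.02, against a median of -0.001 over all genes. The 95% interval for Hbb-bs was -0.74 to 0.80 and that for Mpo was -1.35 to 1.16. Changes within such intervals could not be detected with 4 mice a group.

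The comparison SNI-DMI versus SNI-Saline asks what DMI does in injured mice. The largest differences were in Slc4a1 and Elane. Slc4a1 averaged 1.03 ± 0.298 CPM in SNI-DMI and 2.41 ± 1.71 CPM in SNI-Saline (SD, n = 4 each), and its 4 SNI-DMI libraries (0.648 to 1.32 CPM) all lay below the 4 SNI-Saline libraries (1.41 to 4.97 CPM). The log2 fold change was -1.23 (SE 0.64, edgeR adjusted p = 0.309), and an exact two-sided permutation test on log2 CPM gave p = 0.0286, the smallest that 4 against 4 allows. Of all tested genes 5.97% were lower in SNI-DMI without overlap, and Slc4a1 was the only one of the 9 tested genes that was. Elane averaged 0.123 ± 0.134 against 0.372 ± 0.153 CPM, with overlapping groups, a log2 fold change of -1.60 (SE 0.84, edgeR adjusted p = 0.316) and an exact permutation p of 0.0571.

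Of the 9 tested genes 8 had a lower estimate in SNI-DMI and 1, Prtn3 (0.23, SE 0.31), a higher one. None passed an adjusted p of 0.1 by edgeR, against 2.93% of all tested genes. By the DEG rule the count was 0 of 9, against 5.73%. DESeq2 called 0 of 9, and 0 of 9 had an unadjusted p under 0.05 by edgeR. The median log2 fold change was -0.50, against -0.005 over all genes, and Hbb-bs was at -0.50 (SE 0.37) and Alas2 at -0.57 (SE 0.46). Both alpha genes depended on SNI-Saline replicate 2. Without it, Hba-a1 went from -0.27 to 0.26, Hba-a2 from -0.24 to 0.08, and the median of the 9 genes to -0.18. Fitted on the 8 libraries of this comparison alone, Slc4a1 had an edgeR adjusted p of 0.0982, in a fit that called 8.86% of tested genes.

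The comparison Sham-DMI versus Sham-Saline asks what DMI does without injury. Hba-a1 averaged 9.53 ± 7.08 CPM in Sham-DMI and 20.9 ± 14.1 CPM in Sham-Saline (SD, n = 4 each), a log2 fold change of -1.11 (SE 0.55, edgeR adjusted p = 0.177). Slc4a1 averaged 1.41 ± 1.68 against 2.88 ± 1.31 CPM, with a log2 fold change of -0.97 (SE 0.62, edgeR adjusted p = 0.308). All 10 genes overlapped between the groups, and the smallest exact permutation p was 0.229. The estimates were lower in 7 of 9 tested genes, and Elane (0.27, SE 0.76) and Prtn3 (0.04, SE 0.31) were higher. The edgeR count past an adjusted p of 0.1 was 0 of 9, in a comparison that called 23.4% of all tested genes, and that by the DEG rule was 0 of 9 against 11.5%. DESeq2 called 0 of 9, and 0 of 9 had an unadjusted p under 0.05 by edgeR.

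This outcome depended on Sham-DMI replicate 2. In the other 3 Sham-DMI mice Slc4a1 was at 0.150 to 1.23 CPM and Mpo at 0.0999 to 0.363 CPM, whereas replicate 2 had 3.84 and 1.96 CPM. Without that library, which has the most reads of all, 7 of 9 genes passed by edgeR's adjusted p, all lower in Sham-DMI, in a fit that called 28.1% of tested genes. Slc4a1 was then at -2.17 (SE 0.59, edgeR adjusted p = 0.0142), Hbb-bs at -1.14 (SE 0.31, edgeR adjusted p = 0.0154) and Mpo at -1.69 (SE 0.53, edgeR adjusted p = 0.0323). The others were Alas2, Hba-a1, Hbb-bt and Hba-a2, with log2 fold changes of -0.92 to -1.75. Elane (-1.03) and Prtn3 (-0.28) did not pass. Without Sham-Saline replicate 3, the lowest Sham-Saline library for each of the 10 genes, Hba-a1 was the 1 gene of 10 tested that passed (-1.41, edgeR adjusted p = 0.0911). That fit called 3286 genes in all. The choice to leave a library out was part of a scheme that left out each of the 16 in turn. Nothing in the labels marks either mouse.

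**Figure D4:**
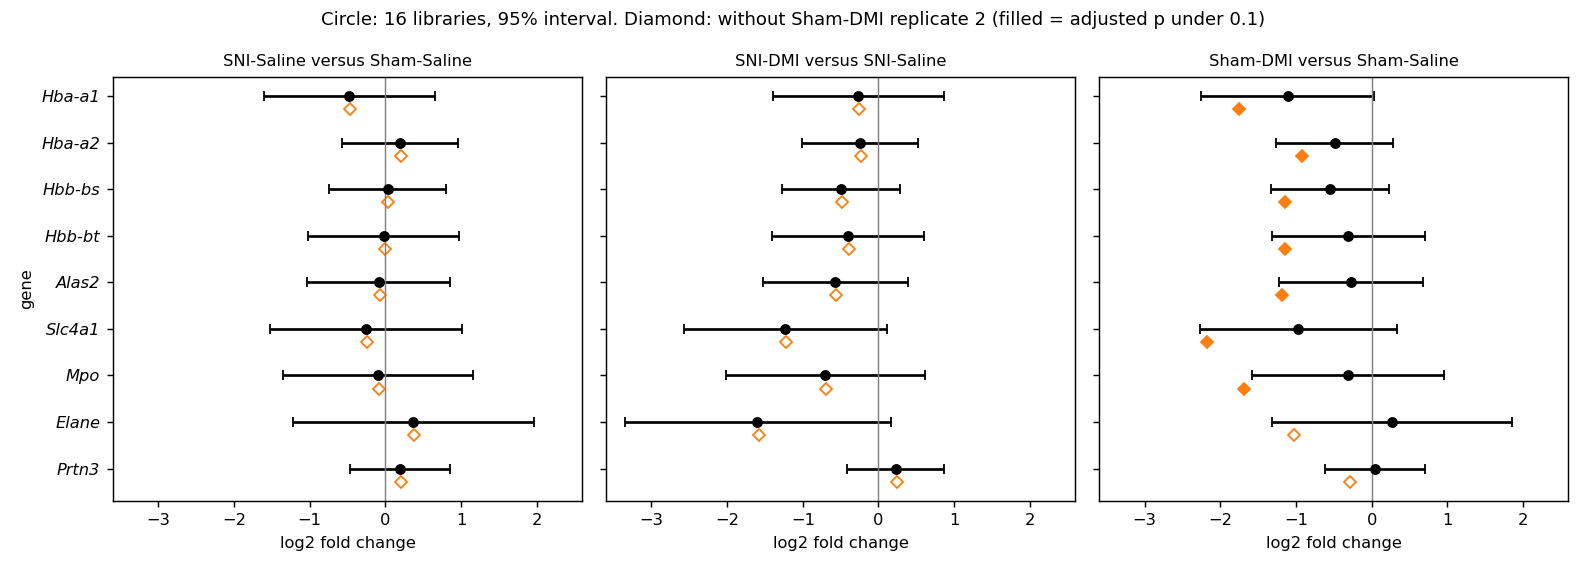
Log2 fold change of the 9 tested genes in 3 comparisons; circles and bars give the estimate and 95% interval from 16 libraries, and diamonds the estimate without Sham-DMI replicate 2, filled where edgeR's adjusted p was under 0.1. Every bar crosses 0, and filled diamonds occur in Sham-DMI versus Sham-Saline only, at 7 genes from Slc4a1 (-2.17) to Hba-a2 (-0.92).

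The difference between the DMI effects in injured and sham mice was tested as an interaction. Its edgeR adjusted p ran from 0.685 (Elane, -1.87, SE 1.13) to 0.986 over the 9 genes, so no gene was shown to respond differently. The Slc4a1 difference was -0.26, with a 95% interval of -2.11 to 1.60. Over all tested genes 0 passed an adjusted p of 0.1 by edgeR, which is 0%, with 1692 at an unadjusted p under 0.05 and 16 called by DESeq2. The comparisons share the SNI-Saline or Sham-Saline libraries, and their values for each gene are therefore only set side by side.

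Other erythroid genes were read from a list of 18, of which 17 were matched and 13 tested. Ahsp was not matched. In Sham-DMI versus Sham-Saline 12 of 13 had a lower estimate, with a median of -0.84, and 1 passed, Trim58 (-1.43, SE 0.51, edgeR adjusted p = 0.0629), a red cell ubiquitin ligase, whose call was lost in 7 of 23 alternatives. The 1 gene that DESeq2 called there was Ermap. Without Sham-DMI replicate 2 the median was -1.97, and Trim58 did not pass. In SNI-DMI versus SNI-Saline 11 of 13 were lower and 0 passed by edgeR or DESeq2, with 3 at an unadjusted p under 0.05 by edgeR. In SNI-Saline versus Sham-Saline 10 of 13 were lower, with a median of -0.42, and 11 of 13 with a median of -0.87 without SNI-Saline replicate 2. The 1 gene that passed there went the other way, Car1 (carbonic anhydrase I), which rose by 2.32 on the log2 scale (SE 0.33, edgeR adjusted p = 0.00129). Car1 averaged 2.48 ± 0.102 CPM in SNI-Saline against 0.497 ± 0.164 CPM in Sham-Saline, and 2.16 ± 0.792 CPM in SNI-DMI against 0.612 ± 0.306 CPM in Sham-DMI (SD, n = 4 each). The r of its log2 CPM with that of Hbb-bs over the 16 libraries was 0.30, given as a description. The embryonic beta globins Hbb-y and Hbb-bh1 had 0 counts in all 16 libraries, and the embryonic alpha globin Hba-x had 2 counts in all. Klf1, the erythroid Krüppel-like factor, was at 0.0161 to 0.381 CPM.

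Genes of haem handling that other cells also use were mostly higher than Alas2 and Slc4a1, and mostly steadier. Exceptions in level were Hp (0.674 to 2.49 CPM), Hpx (0.0452 to 0.396 CPM), Slc40a1 (2.52 to 3.73 CPM) and Cd163 (3.15 to 5.86 CPM). Here and for the lists below, genes said to rise or fall passed an adjusted p of 0.1 by edgeR. Such calls covered 12.0% of all tested genes in SNI-Saline versus Sham-Saline. They covered 2.93% in SNI-DMI versus SNI-Saline and 23.4% in Sham-DMI versus Sham-Saline. The 11 genes of haem synthesis and iron uptake summed to 556 to 634 CPM. Of these, Alas1, the enzyme form used outside red cells, rose in SNI-Saline versus Sham-Saline (0.23, SE 0.07, edgeR adjusted p = 0.0521) and in Sham-DMI versus Sham-Saline (0.29, SE 0.07, edgeR adjusted p = 0.00834), where 3 genes in all rose and 1 fell. The Alas1 call was lost in 5 of 24 alternatives with injury and in 0 of 24 with DMI. Alas2 passed in neither. Of 9 genes of haemoglobin clearance and iron storage, 6 had a higher estimate with injury and 5 with DMI in sham mice. Of these, 3 and 4 passed. Among them was Blvrb (biliverdin reductase B), which rose by 0.23 and 0.34, with edgeR adjusted p of 0.0169 and 0.00176. The first call was lost with GC content and length trends removed (0.108). Of 10 genes of the red cell membrane and metabolism that neurons and glia also express, summing to 1350 to 1670 CPM, 1 rose and 1 fell in each of these comparisons. The tissue globins Ngb and Cygb passed in no comparison by edgeR or DESeq2, and both had an unadjusted p under 0.05 in SNI-DMI versus SNI-Saline. In that comparison 0 genes of these 4 lists passed by edgeR, with 8 at an unadjusted p under 0.05 and 2 called by DESeq2.

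Later granulocyte genes went with the granule progenitor genes in part. Of 14 listed, 13 were tested. In Sham-DMI versus Sham-Saline 13 of 13 had a lower estimate, with a median of -1.50. There 10 passed an adjusted p of 0.1 by edgeR, against 23.4% of all tested genes. In SNI-DMI versus SNI-Saline 12 of 13 were lower, with a median of -1.05. There 3 passed, against 2.93% of all tested genes, and 10 had an unadjusted p under 0.05 by edgeR. S100a8, an alarmin of neutrophils, averaged 5.80 ± 2.88 CPM in Sham-Saline and 1.59 ± 0.862 in Sham-DMI, 5.80 ± 2.80 in SNI-Saline and 1.79 ± 0.641 in SNI-DMI (SD, n = 4). Its log2 fold changes were -1.84 (SE 0.43, edgeR adjusted p = 0.00834) and -1.70 (SE 0.42, edgeR adjusted p = 0.0747). The count in sham mice was also 10 without Sham-DMI replicate 2, and it held the same genes. In that library the list summed to 21 CPM, against 15.8 to 48.5 CPM in Sham-Saline, while its 4 granule progenitor genes summed to 4.23 CPM, above the 0.919 to 3.05 CPM of Sham-Saline. In SNI mice the count was 1 (Retnlg) without SNI-Saline replicate 2, and 0 when any 1 of 5 other libraries was left out (replicates 1 and 3 of SNI-Saline, replicates 1, 2 and 3 of SNI-DMI), where no gene of any kind passed. The S100a8 call in SNI mice was lost without any 1 of the 8 libraries of the comparison and with GC content and length trends removed (edgeR adjusted p of 0.109 to 0.207), with log2 fold changes of -1.90 to -1.29 over all alternatives. In sham mice its call was lost in 0 of 24 alternatives. Whether the later and the progenitor genes differ in their response was not tested. Of 6 tested genes on a list of other progenitor genes, Ctsc (0.42, SE 0.14, edgeR adjusted p = 0.0736) rose with injury and Srgn (-0.38, SE 0.14, edgeR adjusted p = 0.0842) fell with DMI in sham mice, calls lost in 5 and 12 of 24 alternatives.

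Markers of other cells that could come with blood, marrow or neighbouring tissue were read in the same libraries. Of 6 platelet, 2 B-cell (Cd79a and Cd79b), 5 bone and 6 muscle genes tested, 0 passed by edgeR in any of the 3 comparisons, with 2 at an unadjusted p under 0.05 in each, and DESeq2 called 1 bone gene with injury and 1 of the B-cell genes with DMI in sham mice. The 6 genes of B-cell precursors on the same list, such as Vpreb1 (0 to 0.229 CPM) and Rag1 (0 to 0.257 CPM), did not pass the filter on low counts and were not tested. The platelet genes summed to 15.5 to 22.2 CPM, the 8 B-cell and precursor genes to 1.32 to 3.03 CPM and the bone genes to 14.2 to 19.5 CPM, with Rag2 and Mepe at 0 counts in 14 and 15 libraries. The muscle genes summed to 275 CPM in SNI-DMI replicate 2 and had a median of 4 CPM over the libraries; in that library the red cell genes summed to 89.2 CPM and the granule genes to 1.59 CPM. Of 8 cell division genes Birc5 rose with injury (0.39, edgeR adjusted p = 0.0969) and Mki67 fell with DMI in sham mice (-0.43, edgeR adjusted p = 0.0883), and each call was lost in 14 of 24 alternatives (adjusted p of up to 0.257 and 0.287). Of 6 endothelial genes Tek fell with DMI in sham mice (-0.44, SE 0.11, edgeR adjusted p = 0.0136), with the list at 61.7 to 74.8 CPM in Sham-DMI and 69.6 to 102 CPM in Sham-Saline. Of 9 sensory neuron genes 4 rose and 1 fell in that comparison, 1 rose and 1 fell with injury, and in SNI-DMI versus SNI-Saline 0 passed by edgeR or DESeq2 and 0 had an unadjusted p under 0.05. Of 6 glial genes 1 rose with injury, 1 with DMI in injured mice (Fabp7, 0.34, edgeR adjusted p = 0.0973, lost in 15 of 24 alternatives) and 2 with DMI in sham mice. Of 2 tested spinal cord genes Mobp fell in SNI-DMI versus SNI-Saline (-1.83, SE 0.52, edgeR adjusted p = 0.0973), a call lost in 13 of 24 alternatives (adjusted p of 0.104 to 0.261). The part of these cell types in the values of the 10 genes was not tested.

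The balance between the paired globin genes also differed between mice. Hba-a1 took 47.3% (Sham-DMI replicate 3) to 73.6% (Sham-Saline replicate 1) of the counts of both alpha genes, with a median of 55.0%. The exact Clopper-Pearson 95% interval was 71.9% to 75.3% in Sham-Saline replicate 1 and 69.0% to 72.3% in replicate 2, whereas replicates 3 and 4 of that group were at 55.3% (51.3% to 59.2%) and 55.6% (53.0% to 58.1%). The intervals cover counting error only. Hbb-bs took 84.0% to 89.9% of beta counts, a narrower range. The ratio of beta to alpha counts ran from 1.11 (Sham-Saline replicate 2) to 2.41 (Sham-Saline replicate 3). Mpo had 5.6 to 36 counts for every 1000 beta counts, lowest in Sham-DMI replicate 3 and highest in Sham-Saline replicate 2.

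**Figure D5:**
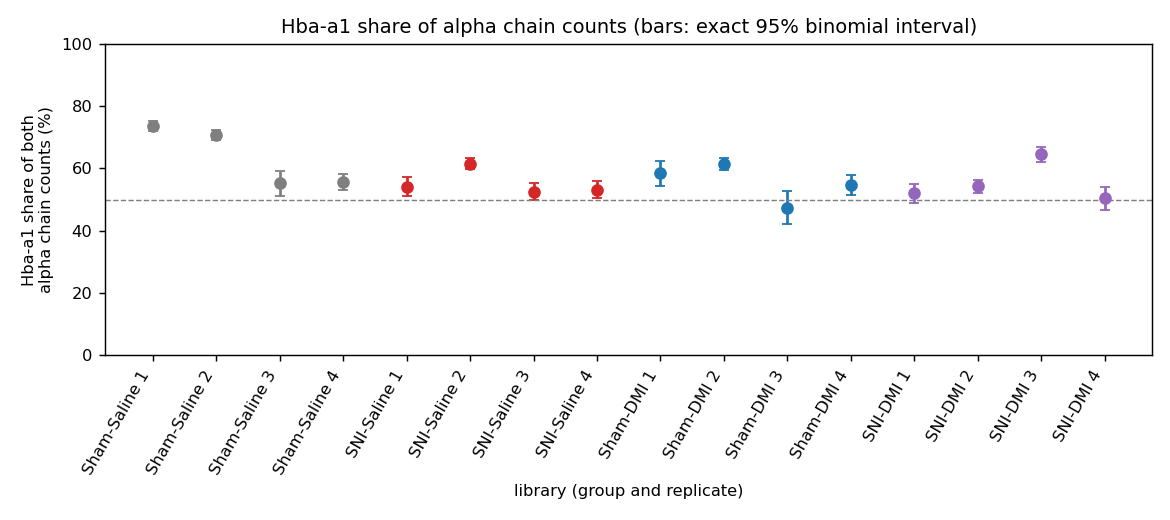
Share of Hba-a1 in the summed counts of Hba-a1 and Hba-a2 (vertical axis, percent) in each library, with exact 95% binomial intervals and a dashed line at equal shares. Sham-Saline replicates 1 and 2 stand at 73.6% and 70.7%, and their intervals overlap none of the others.

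How reads of the paired genes were counted bears on these shares. Of the distinct 50-base words in annotated Hba-a1 transcripts 72.3% also occur in Hba-a2, and 89.3% of those of Hba-a2 occur in Hba-a1. By the study's methods 50 bases is the length of each read of a pair, so these shares describe single reads and not pairs. Hbb-bs and Hbb-bt shared 53.2% and 58.3% of their words. Reads that aligned in more than 1 place were left out of the gene counts by the authors' counter. The alpha values therefore rest on read pairs that reach parts of the transcripts that differ, and are uncertain for each single gene. With the counts of each pair summed, 0 of 7 genes passed in any of the 3 comparisons by edgeR, and the smallest adjusted p was 0.224. Exons of 3 granule or red cell genes lie across from exons of genes on the other strand: Prtn3 over 9.2% of its exon bases with Plppr3 (20.2 to 33.2 CPM), Alas2 over 12.9% with Apex2 (6.48 to 9.14 CPM), and Mpo over 15.0% with Gm11505 (at most 0.0348 CPM). The library kit keeps the strand, and whether the counting used it is not given in the sources used here. The r of Prtn3 with Plppr3 was 0.56 (adjusted permutation p = 0.0726 over 3 pairs; rho 0.57, adjusted permutation p = 0.0732; r of 0.69 without the 2 farthest libraries), and the part of Plppr3 reads in the Prtn3 counts was not tested.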

How the data were processed

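Raw counts per Ensembl gene, whole numbers without normalization, were deposited by the authors for each of the 16 libraries. The submitters' processing notes name HISAT2, HTSeq, DESeq2 and the build mm10; versions of the aligner and counter, the annotation and the use of strand are not given in the sources used here. Each file ends with lines of unassigned reads (7.1% to 9.44% without a feature and 5.71% to 6.4% aligned in more than 1 place), which were left out. Symbols and coordinates come from GENCODE M21 on GRCm38, which held 52489 of 52636 genes, and promoter windows from RefSeq.

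Counts were filtered by edgeR's filterByExpr, scaled by TMM and tested by glmQLFit and glmQLFTest with 1 coefficient per group over 16 libraries (edgeR 4.0.16, R 4.3.3). DESeq2 1.42.0, other filters and scalings, removal of trends on GC content and length (mgcv 1.9.3), the replicate number as a block, the 8 libraries of a comparison alone and leaving out each library were alternatives, 24 in all. Summing the globin pairs was added after seeing the data. Log2 CPM used a prior count of 2. The genes, lists, words and tests were chosen with earlier results of these data known. From each list, up to 3 genes per comparison with the smallest p among those passing an adjusted p of 0.1 are named with values; other genes named were chosen after their values were seen. Permutation tests, tables and figures used python 3.11.15, scipy 1.17.1, numpy 2.4.6, pandas 2.3.3 and matplotlib 3.10.9. The fits were tested on simulated data. The replicates are separate mice, and chi-square per gene between replicates was above 1 in all pairs, so no library was counted as a repeat. Correlations between same-numbered libraries were low: of 24 pairs 5 were over 0.1 (range -0.08 to 0.18, median 0). Those between libraries of other numbers ran from -0.25 to 0.17 (median 0). Some genes of the lists are not reported here.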

Additional observations from a re-analysis of the deposited data

Results flagged for a closer look

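Of 40 sets of 4 libraries (10 genes in 4 groups), 10 held a library whose gap to its neighbour exceeded Dixon's limit for 4 values, as a share of the range. Chance flags about 1 in 20 such sets, and the sets are not independent, since the genes rise and fall together. SNI-Saline replicate 2 was the highest of its group at 28.5 CPM for Hba-a1 (next 10.6), 17.9 for Hba-a2 (next 9.56), 9.51 for Hbb-bt (next 4.98), 3.67 for Alas2 (next 1.85), 4.97 for Slc4a1 (next 1.67) and 1.58 for Mpo (next 0.634). Sham-DMI replicate 2 was the highest of its group at 4.64 CPM for Alas2 (next 1.34), 1.96 for Mpo (next 0.363) and 0.920 for Elane (next 0.189). Sham-Saline replicate 3 was the lowest of its group at 0.919 CPM for Slc4a1 (next 3.41).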

How the results depend on the processing

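The 10 genes gave 0 calls in SNI-Saline versus Sham-Saline under all 24 alternatives, and 0 for the difference between DMI effects under those that use all 4 groups. In SNI-DMI versus SNI-Saline 1 was called with edgeR on the 8 libraries alone (Slc4a1) and 0 elsewhere. In Sham-DMI versus Sham-Saline the count ran from 0 to 7 when single libraries were left out, with 1 without Sham-Saline replicate 3 and 7 without Sham-DMI replicate 2. Because same-numbered libraries did not deviate together, the replicate number is only a name; with it as a block 2 genes were called there (Slc4a1, -1.36, edgeR adjusted p = 0.0808; Hba-a1, -1.16, edgeR adjusted p = 0.0816), the genes called in SNI-DMI versus SNI-Saline fell from 626 to 172, and Prtn3 in Sham-DMI versus Sham-Saline was -0.01. Over all genes, leaving out a library gave 682 to 3286 calls in SNI-Saline versus Sham-Saline, 0 to 1842 in SNI-DMI versus SNI-Saline (0 for each of 5 libraries, replicates 1 and 3 of SNI-Saline and 1, 2 and 3 of SNI-DMI, and 38 for SNI-Saline replicate 4), 3286 to 6094 in Sham-DMI versus Sham-Saline and 0 to 1 for the difference. Removing GC content and length trends gave 840 and 5 calls in the first 2, DESeq2 gave 1898 in SNI-DMI versus SNI-Saline and 16 for the difference, and edgeR on 8 libraries 1812. With GC content and length trends removed, Hbb-bs turned to -0.08 and Xpo7 to 0.00 with injury, and Prtn3 to -0.01 and Xpo7 to 0.05 with DMI in sham mice. The causes were not tested.

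Leaving out 1 library turned the sign of these log2 fold changes, given with the lowest and highest value over the libraries left out and, before these, the other turned values. With injury, Hba-a2 (-0.04) ran from -0.10 to 0.34, Hbb-bs (-0.12) from -0.19 to 0.34, Hbb-bt (0.06, 0.08, 0.10) from -0.34 to 0.21, Alas2 (0.03) from -0.42 to 0.06, Mpo (0.03, 0.08) from -0.59 to 0.43 and Prtn3 from -0.02 to 0.36. With DMI in injured mice, Hba-a1 ran from -0.49 to 0.26 and Hba-a2 from -0.54 to 0.08. With DMI in sham mice, Alas2 ran from -1.19 to 0.01, Mpo (0.02) from -1.69 to 0.20, Elane (-0.02) from -1.03 to 0.71 and Prtn3 (-0.13) from -0.28 to 0.20. Among these, Alas2 and Mpo with DMI in sham mice passed an adjusted p of 0.1 by edgeR in 1 setting, without Sham-DMI replicate 2. Low counts limit Elane, Mpo and Ctsg, and the spread between 4 mice limits all 10 genes. Ctsg had no fit under the filter used.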
